A study of Mus musculus with 18 samples.

Results

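Bile acid synthesis in the liver was examined through 10 genes out of the 16245 in the count table. They were taken by name for their roles, with earlier results of these data known. Their shares set beside those of all genes are therefore a description and not a test. They comprised the hydroxylases Cyp7a1, Cyp7b1, Cyp8b1 and Cyp27a1, the ring-modifying enzymes Hsd3b7 and Akr1d1, and the conjugation enzymes Slc27a5 and Baat. The bile acid receptor FXR (Nr1h4) and its target SHP (Nr0b2) completed them. Bulk RNA-seq was available for the liver of 18 WT C57BL/6 mice, with 6 vehicle-treated, 6 GDF15-treated and 6 pair-fed mice. All of them received a NASH diet, which produces fatty and inflamed liver, and were kept warm at about 29 °C from 8 weeks of age, so no group on ordinary food entered the comparisons. GDF15, a stress-induced cytokine that lowers food intake, was injected under the skin once each morning as recombinant protein. The labels list doses of 5, 1 and 0.3 nmol per kg without giving the dose of each mouse. Food for the pair-fed mice was limited to the intake of GDF15-treated mice, so that GDF15 could be compared with eating less.

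Bile acids are made from cholesterol in hepatocytes along a classical route, which CYP7A1 opens, and an alternative route, in which CYP27A1 acts first and CYP7B1 follows. The shared later steps modify the sterol ring and side chain, CYP8B1 directs the product towards cholic acid, and SLC27A5 and BAAT couple the finished acid to coenzyme A and then to taurine or glycine. Bile acids restrain their own synthesis: they activate FXR, which induces SHP in the liver and FGF15 in the ileum, and both signals lower Cyp7a1 expression. Cyp7a1 is also known as a strongly rhythmic liver gene that follows feeding and the circadian clock.

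Total counts per library lay between 18059478 and 23215915 for vehicle-treated, between 16508864 and 25001486 for GDF15-treated and between 17180057 and 35301853 for pair-fed mice. Among pair-fed mice, replicates 1 to 3 had 17180057 to 17926397 counts and replicates 4 to 6 had 25047723 to 35301853. GDF15-treated mice parted the other way, with 21050932 to 25001486 in replicates 1 to 3 and 16508864 to 19108435 in replicates 4 to 6, while the sets of vehicle-treated mice overlapped. Although the labels name no batch, counts are given by set for Cyp7a1, Cyp8b1 and Nr0b2. The sets also parted in 3 other genes. With GDF15, Akr1d1 ran from 3852 to 4251 normalized counts in replicates 1 to 3 and from 3401 to 3727 in 4 to 6. With pair-feeding, Slc27a5 ran from 13763 to 17365 and from 17844 to 18459, and Nr1h4 from 2363 to 2793 and from 2965 to 3389. The tissue label was checked against 8 hepatocyte markers, all of which were detected in every group, with albumin (Alb) the most abundant. Their summed normalized count ranged from 1564454 to 1995644 in vehicle-treated, 2237711 to 2590183 in GDF15-treated and 1437862 to 2223178 in pair-fed livers, so GDF15 lay above both control groups. Alb made up most of this sum, with means of 1231856, 1646873 and 1237371 in these groups. Taken singly, 6 of the 8 markers were higher with GDF15 than with vehicle and 2 did not pass. In bulk tissue, more or fewer cells of a type cannot be told apart from more or less RNA per cell.

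The sequences before the RefSeq start sites are shown for 4 genes that the results turn on: Cyp27a1 and Akr1d1, whose RNA was higher with GDF15, Cyp8b1, whose difference did not pass the test, and Nr0b2, which differed between sets of mice. RefSeq promoters on GRCm38.p6 matched 6 of the 10 genes, the others being Nr1h4 and Hsd3b7, and none was printed for Cyp7a1, Cyp7b1, Baat and Slc27a5. Each run holds the 250 bases before the start, 5′ to 3′ on the strand of the gene, at chr1:74713285-74713534 (plus) for Cyp27a1, chr6:37529923-37530172 (plus) for Akr1d1, chr9:121916306-121916555 (minus) for Cyp8b1 and chr4:133553126-133553375 (plus) for Nr0b2. Capitals mark matches, on either strand, to the core sites TCAAGG (bound by LRH-1, the product of Nr5a2) and AGGTCA (bound by many nuclear receptors), or to TATAAA.
Cyp27a1: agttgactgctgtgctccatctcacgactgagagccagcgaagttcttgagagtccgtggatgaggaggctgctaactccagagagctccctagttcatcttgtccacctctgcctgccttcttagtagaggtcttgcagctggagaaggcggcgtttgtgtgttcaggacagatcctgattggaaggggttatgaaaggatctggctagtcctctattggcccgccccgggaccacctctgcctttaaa
Akr1d1: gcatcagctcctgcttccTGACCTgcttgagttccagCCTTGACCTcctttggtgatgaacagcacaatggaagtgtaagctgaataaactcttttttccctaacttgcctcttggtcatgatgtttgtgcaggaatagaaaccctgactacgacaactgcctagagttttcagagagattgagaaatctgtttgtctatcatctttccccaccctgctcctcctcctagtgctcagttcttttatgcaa
Cyp8b1: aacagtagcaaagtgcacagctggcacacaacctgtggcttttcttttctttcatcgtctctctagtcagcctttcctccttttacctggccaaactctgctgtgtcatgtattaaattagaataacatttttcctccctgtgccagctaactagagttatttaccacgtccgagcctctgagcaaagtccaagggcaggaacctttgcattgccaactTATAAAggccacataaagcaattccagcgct
Nr0b2: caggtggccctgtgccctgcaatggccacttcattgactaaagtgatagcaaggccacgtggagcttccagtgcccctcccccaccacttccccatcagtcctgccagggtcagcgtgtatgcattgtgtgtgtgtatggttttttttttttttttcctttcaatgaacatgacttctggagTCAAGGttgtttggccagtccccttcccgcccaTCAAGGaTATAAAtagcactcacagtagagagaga
Nr0b2 held TCAAGG at bases 68 to 63 and 35 to 30 before the start, followed by TATAAA at 28 to 23. Akr1d1 held AGGTCA on the reverse strand at 232 to 227 and at 210 to 205, the latter overlapping a reverse-strand TCAAGG at 213 to 208. Cyp8b1 held TATAAA at 31 to 26, and Cyp27a1 and Hsd3b7 held none of these letters in the window. Nr1h4 held AGGTCA on the reverse strand at 214 to 209. Its window (chr10:89506659-89506908, minus) lies inside the gene (chr10:89454234-89533585), so it belongs to an internal start. Among 32851 promoters of the same length, 12.5% held TCAAGG, 14.0% AGGTCA and 12.4% TATAAA. The FXR-type repeat, AGGTCA and its inverse spaced by 1 base, was found in 0.00609% of promoters and the D-box forms TTATGTAA and TTACGTAA, bound by clock factors such as DBP, in 0.819% and 0.113%, and in none of the 6 genes.

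With GDF15, 4 of the 10 genes were higher than with vehicle and none was lower (DESeq2, adjusted p under 0.05), whereas scaling by hepatocyte markers gave 2 higher and 4 lower. Both enzymes of the alternative route, Cyp27a1 and Cyp7b1, were among them, with the bile acid ligase Slc27a5 and the ring reductase Akr1d1. Of all 14667 genes tested, 33.3% passed in either direction and 15.8% passed as higher, against 4 of 10 here. The median log2 fold change was 0.58 over the 10 genes and 0.00 over all genes tested. In 3 of the 10 genes every GDF15-treated mouse lay above every vehicle-treated mouse, which held for 6.53% of genes. Only Cyp7b1 also had an absolute log2 fold change above 1, which 6.27% of genes tested did in either direction and 0.9% as higher.

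Relative to pair-feeding Cyp27a1, Cyp7b1, Slc27a5 and Akr1d1 were again higher with GDF15, 4 of 10, and none was lower (1 higher and 4 lower when scaled by hepatocyte markers), where 27.1% of 14353 genes passed in either direction and 13.3% as higher. The median log2 fold change was 0.31 over the 10 genes, and no gene of the 10 passed both thresholds, which 3.37% of genes did in either direction and 0.627% as higher. The GDF15 samples are shared by both comparisons, so these do not test each other. In 2 genes, Cyp27a1 and Slc27a5, all GDF15-treated mice lay above all pair-fed mice, as in 5.42% of genes, and above all 12 other mice, as in 3.71%. The scaling by hepatocyte markers took size factors from the 8 markers alone and was chosen after the data were seen. Over genes averaging 10 or more normalized counts, it moved the median log2 fold change from 0.019 to -0.49 relative to vehicle and from 0.0097 to -0.43 relative to pair-feeding, and the values it gave are stated beside each gene whose call it ended or turned.

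**Figure D1:**
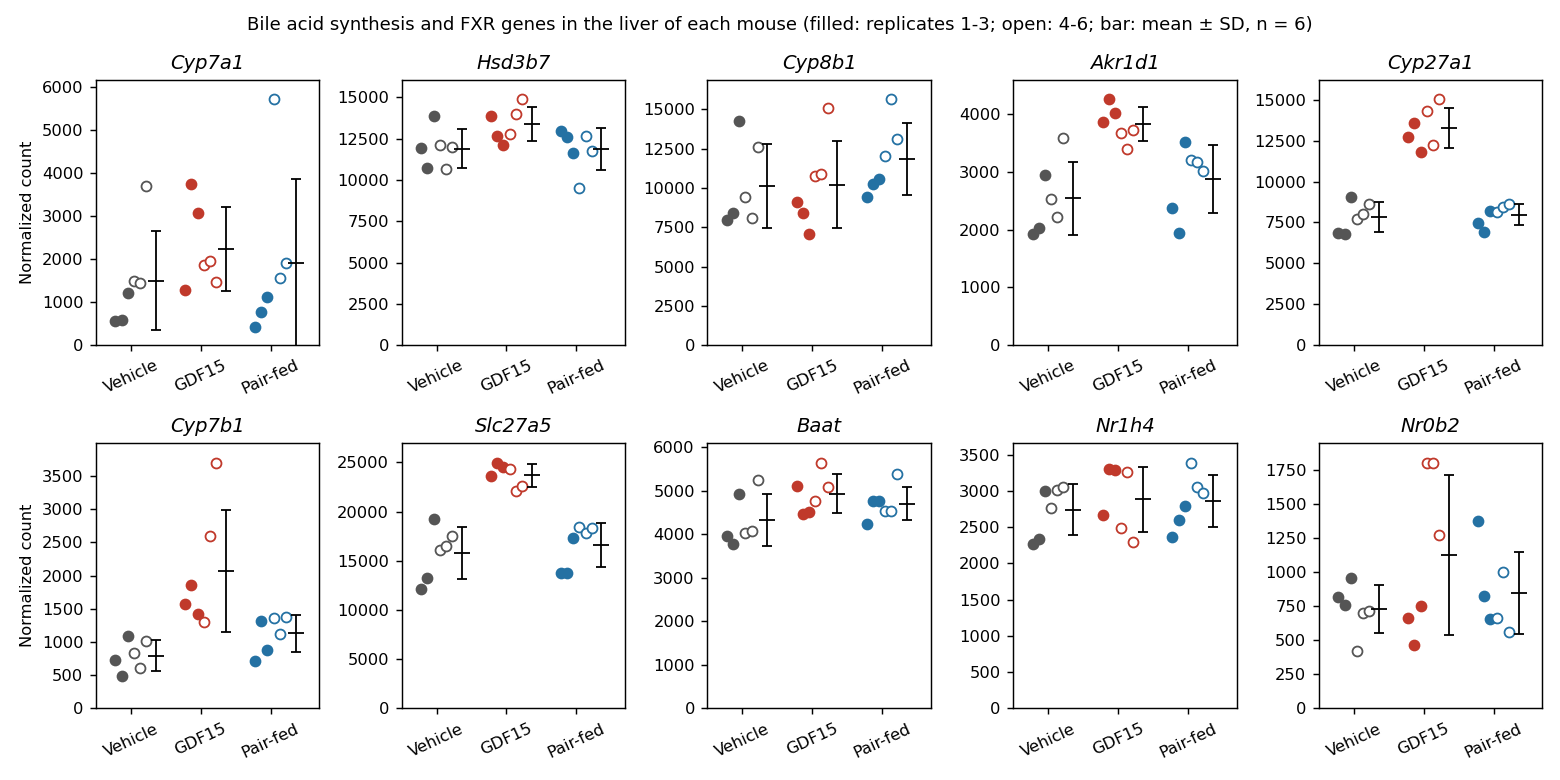
Normalized counts (y axis, linear from 0, with its own scale in each panel) of the 10 genes in each mouse, for vehicle-treated (grey), GDF15-treated (red) and pair-fed (blue) mice; filled points are replicates 1 to 3, open points replicates 4 to 6, and bars the mean ± SD of 6 mice (for Cyp7a1 in pair-fed mice the lower bar ends at the axis). The GDF15 points of Cyp27a1 and Slc27a5 lie above all points of the other groups, while those of Cyp7a1 overlap both.

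Cyp27a1 encodes the mitochondrial sterol hydroxylase that starts the alternative route (chr1:74713574-74737892, plus strand, GRCm38, 9 exons). Its normalized counts in vehicle-treated mice were 6811 at the lowest, 7849 at the median and 9034 at the highest, against 11833, 13158 and 15024 with GDF15 and 6923, 8169 and 8631 with pair-feeding. No GDF15-treated mouse overlapped either other group, and the vehicle and pair-fed ranges lay over each other. The mean rose from 7844 ± 903 (SD, n = 6) to 13280.5 ± 1235 with GDF15, a log2 fold change of 0.76 ± 0.08 (SE, DESeq2 adjusted p = 1.01e-17), and relative to pair-feeding the log2 fold change was 0.74 ± 0.08 (adjusted p = 1.30e-16). With size factors from the hepatocyte markers the difference was smaller and still passed, at 0.26 relative to vehicle (adjusted p = 0.000283) and 0.29 relative to pair-feeding (adjusted p = 6.92e-05).

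Cyp7b1 encodes the oxysterol hydroxylase of the alternative route (chr3:18071950-18243338, minus strand, 6 exons). Vehicle-treated mice ranged from 493 to 1090.4 normalized counts with a median of 783, GDF15-treated mice from 1295 to 3698 with a median of 1714, and pair-fed mice from 709 to 1379 with a median of 1219. All GDF15-treated mice lay above all vehicle-treated mice and 5 of 6 lay above all pair-fed mice, with GDF15 replicates 5 and 6 the highest of all. GDF15 differed from vehicle by 1.38 ± 0.28 on the log2 scale (2.60-fold, DESeq2 adjusted p = 1.48e-05) and from pair-feeding by 0.88 ± 0.28 (1.84-fold, adjusted p = 0.0102). Against pair-feeding the call was lost with 3 mice a group, at 0.74 in replicates 1 to 3 (adjusted p = 0.122) and 0.98 in replicates 4 to 6 (adjusted p = 0.0678), and with size factors from hepatocyte markers, at 0.44 ± 0.21 (adjusted p = 0.0637).

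Cyp7a1, the rate-limiting enzyme of the classical route (chr4:6265612-6275633, minus strand, 6 exons), had the largest coefficient of variation of the 10 genes among vehicle-treated mice (77.2%) and pair-fed mice (101%), and 43.4% with GDF15. Normalized counts ran from 554 to 3702 with a median of 1331 in vehicle-treated mice, from 1291 to 3752 with a median of 1909.9 with GDF15, and from 428 to 5717 with a median of 1341 with pair-feeding. The 3 groups overlapped, and vehicle replicate 6 and pair-fed replicate 4 stood far above the rest of their groups. Relative to vehicle the log2 fold change was 0.58 ± 0.57 (95% interval -0.53 to 1.69, DESeq2 adjusted p = 0.461) and relative to pair-feeding 0.22 ± 0.57 (-0.89 to 1.33, adjusted p = 0.815). Without pair-fed replicate 4 the latter was 0.95 (adjusted p = 0.139), and over all fits that left out 1 mouse it ran from 0.0090 to 0.95. Neither passed, and the intervals are wide enough to hold a rise of more than 2-fold. They also hold a fall, to 0.69-fold relative to vehicle and 0.54-fold relative to pair-feeding.

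Hsd3b7, which oxidizes the sterol ring after the first hydroxylation (chr7:127800604-127803802, plus strand, 7 exons), ranged from 10684 to 13895 with a median of 11961 in vehicle-treated mice, from 12145 to 14883 with a median of 13319 with GDF15, and from 9491 to 12965 with a median of 12192 with pair-feeding. The groups overlapped, with 2 GDF15-treated mice above all vehicle-treated mice and 3 above all pair-fed mice. Both comparisons gave a log2 fold change of 0.17 ± 0.08 (DESeq2 adjusted p = 0.0903 and 0.0963), with 95% intervals of 0.01 to 0.33 in each. It passed relative to vehicle without vehicle replicate 3 (0.22, adjusted p = 0.0191), and with size factors from hepatocyte markers it was lower with GDF15, at -0.33 relative to vehicle (adjusted p = 0.0178) and -0.29 relative to pair-feeding (adjusted p = 0.0421).

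Cyp8b1, the hydroxylase that sets the share of cholic acid (chr9:121914356-121916305, minus strand, 1 exon), was among the more abundant genes and did not pass in either comparison. Its lowest, median and highest normalized counts were 7964, 8937 and 14252 in vehicle-treated mice, 7046, 9939 and 15064 with GDF15, and 9412, 11281 and 15641 with pair-feeding. The groups overlapped, although 3 GDF15-treated mice, replicates 1 to 3, lay below all pair-fed mice. With GDF15, Cyp8b1 ran from 7046 to 9107 in replicates 1 to 3 and from 10770 to 15064 in replicates 4 to 6. With pair-feeding it ran from 9412 to 10554 and from 12008 to 15641, while the vehicle sets overlapped. Its log2 fold change was 0.01 ± 0.18 relative to vehicle (95% interval -0.34 to 0.37, DESeq2 adjusted p = 0.968) and -0.21 ± 0.18 relative to pair-feeding (-0.57 to 0.14, adjusted p = 0.409). With size factors from hepatocyte markers it was lower with GDF15, at -0.48 (adjusted p = 0.00212) and -0.65 (adjusted p = 5.46e-05).

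Akr1d1, the reductase that gives bile acids their bent ring junction (chr6:37530173-37568815, plus strand, 9 exons), was higher with GDF15 in both comparisons. Normalized counts were 1918, 2373 and 3585 at the lowest, median and highest in vehicle-treated mice, 3401, 3789 and 4251 with GDF15, and 1941, 3093 and 3513 with pair-feeding. In each comparison 5 of 6 GDF15-treated mice lay above every control mouse. Akr1d1 had a log2 fold change of 0.59 ± 0.15 relative to vehicle (1.51-fold, DESeq2 adjusted p = 0.000655) and 0.41 ± 0.15 relative to pair-feeding (1.33-fold, adjusted p = 0.0263). The call against pair-feeding was lost in 4 of 12 fits that left out 1 mouse, without GDF15 replicate 2 (adjusted p = 0.0613), GDF15 replicate 3 (0.0506), pair-fed replicate 1 (0.0703) or pair-fed replicate 2 (0.0789), and under total-count scaling (log2 fold change 0.25, adjusted p = 0.129). With size factors from hepatocyte markers neither comparison passed, at 0.11 (adjusted p = 0.397) and -0.01 (adjusted p = 0.960), and in replicates 4 to 6 alone neither did, at 0.38 (adjusted p = 0.0745) and 0.21 (adjusted p = 0.406).

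Slc27a5, the ligase that joins bile acids to coenzyme A (chr7:12988346-12998192, minus strand, 10 exons), was the most abundant of the 10 genes and rose with GDF15. Vehicle-treated mice had 12174, 16302 and 19278 normalized counts at the lowest, median and highest, GDF15-treated mice 22064, 23996 and 24968, and pair-fed mice 13763, 17604 and 18459. The GDF15 group was the tightest of the 3 and did not overlap the others. The mean rose from 15811 ± 2647 to 23690.2 ± 1151 (SD, n = 6), a log2 fold change of 0.58 ± 0.11 (DESeq2 adjusted p = 7.69e-07), and relative to pair-feeding the log2 fold change was 0.51 ± 0.11 (adjusted p = 2.41e-05). Both calls were lost with size factors from hepatocyte markers, at 0.10 (adjusted p = 0.200) and 0.09 (adjusted p = 0.271).

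Baat, which conjugates bile acids to taurine or glycine (chr4:49489422-49506557, minus strand, 4 exons), overlapped between groups, with ranges of 3786 to 5242 in vehicle-treated mice (median 4057), 4459.9 to 5645 with GDF15 (median 4935) and 4236 to 5379 with pair-feeding (median 4652). The log2 fold change was 0.19 ± 0.09 relative to vehicle (95% interval 0.01 to 0.36, DESeq2 adjusted p = 0.0858) and 0.07 ± 0.09 relative to pair-feeding (-0.10 to 0.24, adjusted p = 0.606). The first passed without vehicle replicate 3 (0.23, adjusted p = 0.0364) or vehicle replicate 6 (0.25, adjusted p = 0.0107). Scaled by hepatocyte markers, Baat was lower with GDF15, at -0.31 (adjusted p = 0.00820) and -0.38 (adjusted p = 0.00155).

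Nr1h4 encodes FXR, the nuclear receptor that bile acids activate (chr10:89454234-89533585, minus strand, 10 exons). Its normalized counts ranged from 2274 to 3049 in vehicle-treated mice (median 2884), 2291 to 3301 with GDF15 (median 2966) and 2363 to 3389 with pair-feeding (median 2879). The ranges lay over each other, with log2 fold changes of 0.07 ± 0.11 relative to vehicle (95% interval -0.15 to 0.30, DESeq2 adjusted p = 0.657) and 0.01 ± 0.11 relative to pair-feeding (-0.21 to 0.23, adjusted p = 0.960). Scaled by hepatocyte markers, Nr1h4 was lower with GDF15, at -0.41 in both comparisons (adjusted p = 0.00110 and 0.00127).

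Nr0b2 encodes SHP, the repressor that FXR induces (chr4:133553376-133556536, plus strand, 2 exons). Normalized counts were 425, 739 and 962 at the lowest, median and highest in vehicle-treated mice, 464, 1015 and 1807 with GDF15, and 563, 746 and 1379 with pair-feeding. The GDF15 group had 3 mice above all vehicle-treated mice and 3 within their range, and it overlapped the pair-fed group. The log2 fold change was 0.62 ± 0.32 relative to vehicle (95% interval -0.01 to 1.26, DESeq2 adjusted p = 0.126) and 0.41 ± 0.32 relative to pair-feeding (-0.23 to 1.05, adjusted p = 0.369). The first passed without GDF15 replicate 2 (0.79, adjusted p = 0.0342).

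**Figure D2:**
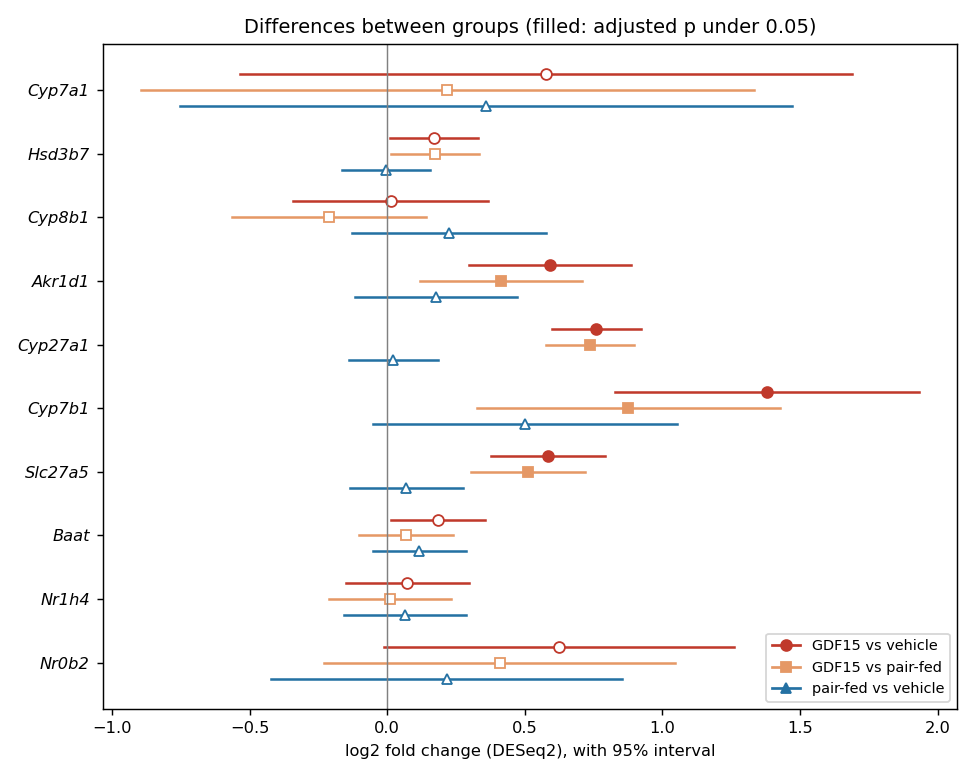
Log2 fold changes from DESeq2 (x axis) with 95% intervals for each of the 10 genes (y axis) in GDF15 against vehicle (circles), GDF15 against pair-fed (squares) and pair-fed against vehicle (triangles); filled symbols have an adjusted p under 0.05. Akr1d1, Cyp27a1, Cyp7b1 and Slc27a5 are filled in both GDF15 comparisons and no triangle is filled; with size factors from hepatocyte markers only Cyp27a1 and Cyp7b1 relative to vehicle and Cyp27a1 relative to pair-feeding stay higher.

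No difference between pair-fed and vehicle-treated mice passed for these genes. None of the 10 reached the threshold (DESeq2 lowest adjusted p = 0.998, none at an unadjusted p under 0.05, and 0 by edgeR), and 0.0% of 16242 genes tested passed. The median log2 fold change of the 10 was 0.15, and 9 of 10 were above 0, against a median of -0.0045 and 48.42% above 0 over all genes tested. The levels of these genes are related between mice, and their shared direction was not tested. Cyp7b1 had the largest difference, 0.50 ± 0.28 (95% interval -0.05 to 1.05, unadjusted p = 0.0747), with 4 of 6 pair-fed mice above all vehicle-treated mice. For Cyp27a1 the interval was narrow, -0.14 to 0.18 around 0.02.

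Levels between genes were compared as normalized counts per kilobase of the longest coding transcript. In vehicle-treated livers Slc27a5 (6911 ± 1157, SD, n = 6) and Hsd3b7 (6502 ± 645) were highest, followed by Cyp8b1 (5192 ± 1363) and Cyp27a1 (4146 ± 477), and each of these lay within the larger SD of its neighbour in the order. Baat (2235 ± 306), Nr1h4 (1361 ± 175), Akr1d1 (940.1 ± 235) and Nr0b2 (646 ± 157) followed, and Cyp7b1 (368 ± 107) and Cyp7a1 (359 ± 277) were lowest and did not differ beyond their spread. With GDF15, Slc27a5 stood at 10354 ± 503 and Cyp27a1 at 7019 ± 653, close to Hsd3b7 at 7323 ± 564, while Cyp7b1 at 957 ± 425 overlapped Nr0b2 at 997 ± 519.

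The balance between the opening enzyme of the classical route and Cyp7b1 was read within each library as log2(Cyp7a1/Cyp7b1), which library scaling cannot alter. It was 0.65 ± 0.82 (SD, n = 6) in vehicle-treated, 0.10 ± 0.95 in GDF15-treated and 0.31 ± 1.04 in pair-fed mice, with Cyp7a1 above Cyp7b1 in 5, 3 and 4 of 6 mice. The ranges overlapped, from -0.39 to 1.86, -1.33 to 1.11 and -0.77 to 2.06. GDF15 differed from vehicle by -0.55 (exact two-sided permutation p = 0.318) and from pair-feeding by -0.21 (exact p = 0.729), and pair-feeding differed from vehicle by -0.34 (exact p = 0.535). Over these 3 tests each adjusted p was 0.729, and the smallest p the design allows is 0.00216.

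Cyp7a1 and Nr0b2 differed between the lower-numbered and higher-numbered mice. In replicates 1 to 3 Cyp7a1 read 554, 577 and 1218 normalized counts with vehicle and 1291, 3752 and 3074 with GDF15, and all 3 GDF15-treated mice lay above the vehicle-treated ones. In replicates 4 to 6 it read 1484, 1444 and 3702 with vehicle and 1873, 1947 and 1469 with GDF15, which overlapped. Pair-fed mice ran from 428 to 1122 in replicates 1 to 3 and from 1560 to 5717 in replicates 4 to 6. The log2 fold change relative to vehicle was 1.79 ± 0.55 in the first set (DESeq2 adjusted p = 0.00903) and -0.33 ± 0.61 in the second (adjusted p = 0.770), and relative to pair-feeding 1.81 ± 0.55 (adjusted p = 0.00821) and -0.79 ± 0.61 (adjusted p = 0.415). The difference between sets, tested as a group by set interaction added after the data were seen, was -2.11 ± 0.85 relative to vehicle (adjusted p = 0.194) and -2.60 ± 0.85 relative to pair-feeding (adjusted p = 0.0335).

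Nr0b2 went the other way. Its counts in GDF15-treated mice were 666, 464 and 756 in replicates 1 to 3 and 1807, 1802 and 1273 in replicates 4 to 6, against 822, 761 and 962 and then 425, 700.3 and 718 in vehicle-treated mice. All 3 GDF15-treated mice lay below all 3 vehicle-treated mice in the first set and above them in the second. The log2 fold change relative to vehicle was -0.43 ± 0.25 in the first set (DESeq2 adjusted p = 0.215) and 1.41 ± 0.25 in the second (adjusted p = 6.00e-07), and the sets differed by 1.84 ± 0.39 (adjusted p = 0.00154), a difference that passed in 1.66% of genes. Relative to pair-feeding the sets differed by 1.73 ± 0.39 (adjusted p = 0.000772), where 8.81% of genes passed. Pair-fed against vehicle, the sets differed by 0.10 for Nr0b2 and 0.49 for Cyp7a1 (adjusted p = 1.00 for both). The sets differed in library depth without overlap in pair-fed mice (deeper in replicates 4 to 6) and in GDF15-treated mice (deeper in replicates 1 to 3), and the part of collection day, feeding state or depth was not tested.

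Between mice of the same group, Cyp7a1 was higher where Dbp, a clock output gene, was higher, whereas its relation to Nr0b2 did not pass. Whether the relations differ was not tested. Over 18 mice, deviations from the group mean of log2(normalized count + 1) gave r = 0.678 for Dbp and Cyp7a1 (permutation p = 0.00442, adjusted p = 0.0177 over 4 relations) and rho = 0.707 (permutation p = 0.00274, adjusted p = 0.0110). Without the 2 mice farthest from the median in Dbp r was 0.583, within vehicle, GDF15 and pair-fed mice it was 0.443, 0.610 and 0.868, and in replicates 1 to 3 and 4 to 6 it was 0.895 and 0.522. With each mouse set against its own group and set, r was 0.508. A high r with Cyp7a1 was not particular to Dbp. Without a test, the same deviations gave Cyp7a1 an r of 0.816 with Nr1h4, 0.753 with Slc27a5 and 0.71 with Akr1d1. With the other members it ran from -0.491 (Hsd3b7) to 0.459 (Cyp27a1). Nr0b2 and Cyp7a1 gave r = -0.417 (permutation p = 0.0561, adjusted p = 0.112) and rho = -0.480 (permutation p = 0.0445, adjusted p = 0.0889), with -0.384 without 2 mice. It was -0.264, -0.473 and -0.665 within the groups, -0.726 and -0.465 in replicates 1 to 3 and 4 to 6, and -0.197 within group and set. Cyp8b1 was related neither to Nr0b2 (r = 0.332, permutation p = 0.236, adjusted p = 0.304) nor to Cyp7a1 (r = 0.257, permutation p = 0.304, adjusted p = 0.304) at the threshold. The groups differed in sign. Within vehicle, GDF15 and pair-fed mice r was 0.284, 0.628 and -0.269 with Nr0b2, and 0.589, -0.645 and 0.563 with Cyp7a1.

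**Figure D3:**
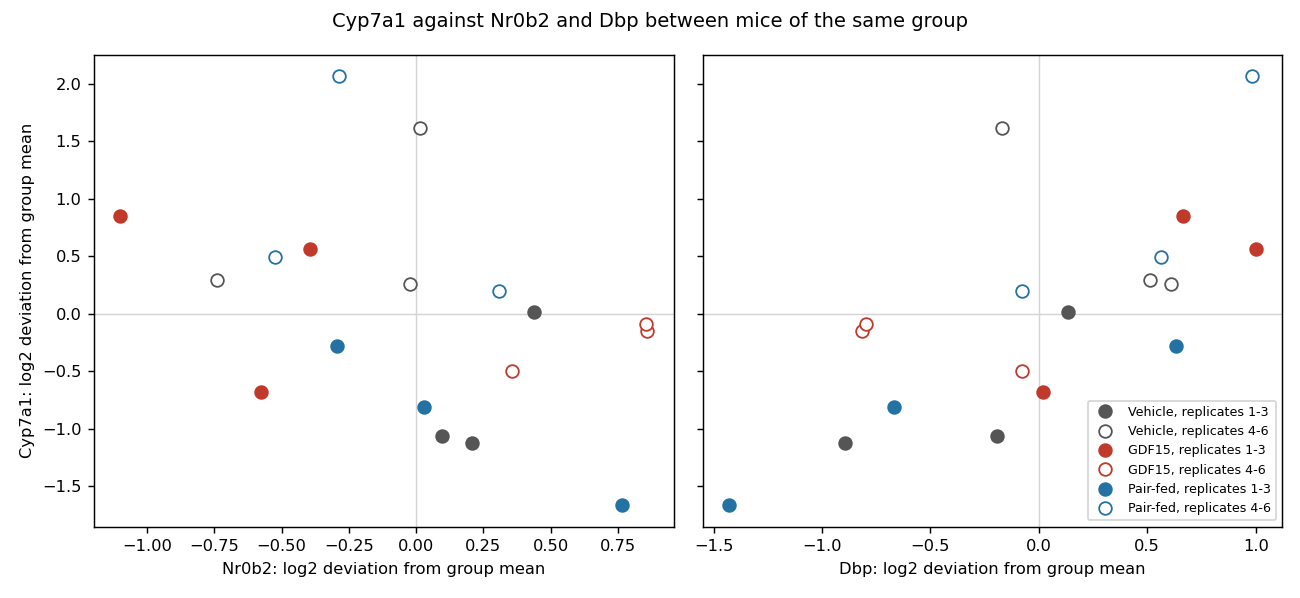
Deviation of Cyp7a1 from its group mean (y axis, log2) against that of Nr0b2 (left) and Dbp (right) in 18 mice; colours mark groups, and filled and open points replicates 1 to 3 and 4 to 6. Points rise with Dbp (r = 0.678), and the fall with Nr0b2 (r = -0.417) did not pass its test.

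Genes around the pathway were read from lists. Their counts stand against 15.8% of all genes tested higher and 17.5% lower relative to vehicle, and 13.3% and 13.8% relative to pair-feeding, and with lists this short a share near these is no result about the list. Of 12 other bile acid enzymes, 11 were measured (a mean normalized count of at least 10), of which 3 were higher with GDF15 than with vehicle, 2 were lower and 6 did not pass, with a median log2 fold change of 0.18. Cyp2c70, which makes the muricholic acids typical of mice, rose from 3380 ± 601 to 7474 ± 1030 (SD, n = 6), a log2 fold change of 1.15 ± 0.13 (DESeq2 adjusted p = 2.31e-15), and read 3184 ± 619 with pair-feeding. Cyp39a1, an oxysterol hydroxylase, rose by 0.72 ± 0.14 (adjusted p = 2.69e-06). The peroxisomal side-chain genes Hsd17b4 and Scp2 fell by 0.27 and 0.16 (adjusted p = 3.00e-05 and 0.0164). Relative to pair-feeding 2 were higher and 2 lower, with a median of 0.08, against 2 higher and 8 lower (median -0.33) when scaled by hepatocyte markers. Scaled by hepatocyte markers, 1 was higher and 7 lower relative to vehicle (median -0.33), Cyp2c70 was still higher (0.64, adjusted p = 5.26e-05) and Cyp39a1 no longer passed (0.23, adjusted p = 0.193).

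Of 13 regulators of bile acid synthesis, 12 were in the table and 11 were measured, and 9 of these were higher with GDF15 than with vehicle and none lower (median 0.39), against 6 higher with total-count scaling and none higher and 2 lower when scaled by hepatocyte markers (median -0.12). Relative to pair-feeding 8 were higher and none lower (median 0.42), against 4 higher with total-count scaling and none higher and 1 lower with hepatocyte markers. The FGF15 receptor Fgfr4 rose by 0.39 ± 0.08 (DESeq2 adjusted p = 3.28e-05), its co-receptor Klb by 0.59 ± 0.11 (adjusted p = 4.87e-06), LRH-1 (Nr5a2) by 0.37 ± 0.07 (adjusted p = 6.66e-06) and the hepatocyte factor Hnf4a by 0.54 ± 0.06 (adjusted p = 3.93e-15). None of these 4 passed when scaled by hepatocyte markers (adjusted p = 0.468, 0.400, 0.331 and 0.733). Fgf15, made in the ileum, was not analysed here.

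Of 9 FXR targets 8 were measured, with 3 higher and 2 lower in both comparisons and medians of 0.12 and -0.07, but 3 higher and 3 lower in each with total-count scaling (medians -0.06 and -0.24) and none higher and 4 lower in each when scaled by hepatocyte markers. The bile salt export pump Abcb11 rose by 0.68 ± 0.14 (adjusted p = 1.86e-05) and Mafg by 0.43 ± 0.06 (adjusted p = 6.55e-10), whereas the phospholipid transporter Abcb4 fell by 0.40 (adjusted p = 3.34e-06) and Apoc2 fell by 0.72 (adjusted p = 6.63e-12). Slc51b, a subunit of the basolateral bile acid exporter, read -0.64 ± 0.27 (adjusted p = 0.0556) and was lower with total-count scaling (-0.81, adjusted p = 0.0136) and with hepatocyte markers (-1.14, adjusted p = 0.00105). Abcb11 and Mafg did not pass with hepatocyte markers (0.19 and -0.08, adjusted p = 0.304 and 0.509).

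Among 14 clock genes 3 were higher with GDF15 than with vehicle, none was lower and 11 did not pass (median 0.37), whereas total-count scaling left none passing and hepatocyte-marker scaling gave 2 lower and none higher. Relative to pair-feeding 2 were higher (median 0.13), against 1 higher and 1 lower with total-count scaling (median -0.03) and none higher and 2 lower with hepatocyte markers (median -0.29). Cry2 and Cry1, repressors of the clock, rose by 0.44 ± 0.13 (DESeq2 adjusted p = 0.00498) and 0.71 ± 0.24 (adjusted p = 0.0129) relative to vehicle, and neither passed with total-count scaling (adjusted p = 0.0817 and 0.0745) or with size factors from hepatocyte markers, where Cry2 was at -0.06. Dbp ranged from 1271 to 3603 normalized counts with vehicle, 1616 to 5696 with GDF15 and 940.5 to 5005 with pair-feeding, and its difference from vehicle was 0.34 ± 0.39 (adjusted p = 0.532).

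**Figure D4:**
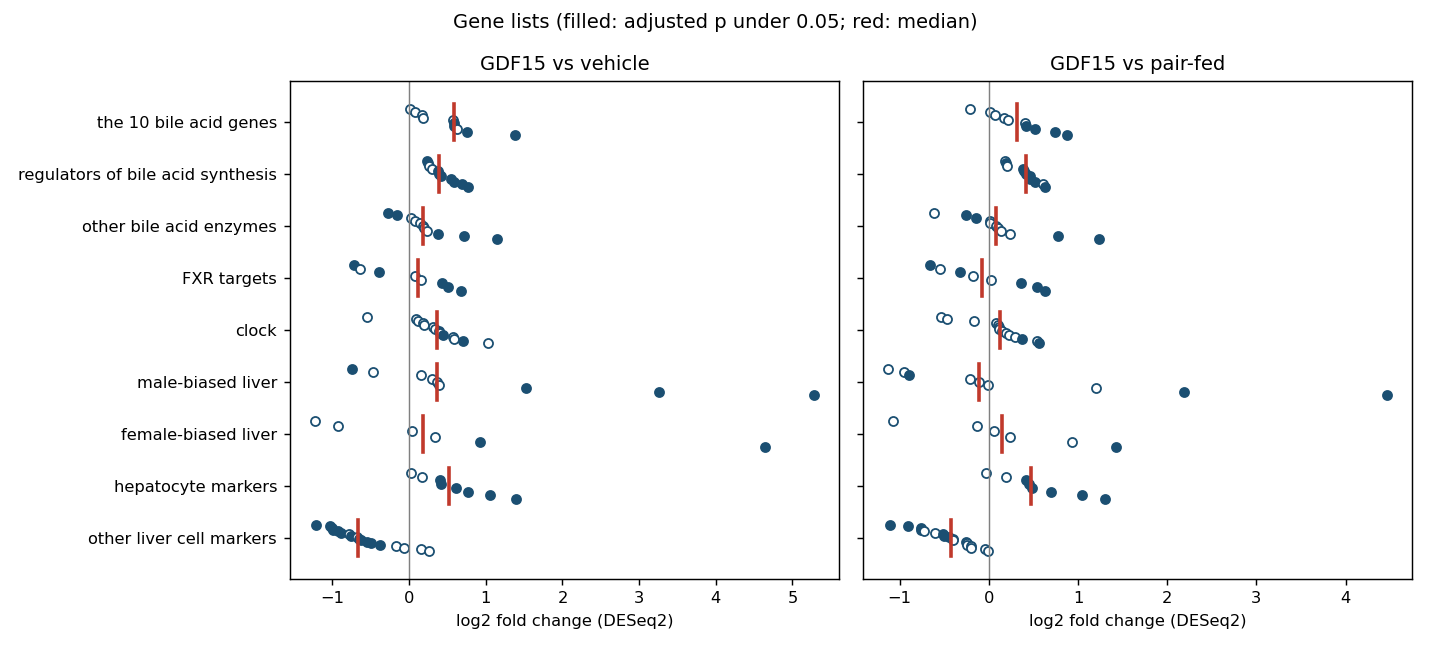
Log2 fold changes (DESeq2, x axis) of the 10 bile acid genes and of each gene measured in 8 lists (y axis), for GDF15 against vehicle (left) and against pair-fed (right); each point is a gene, filled where its adjusted p was under 0.05, and red bars are medians. The medians of hepatocyte markers (0.51 and 0.47) and of other liver cell markers (-0.66 and -0.42) lie on opposite sides of 0, and the scaling by hepatocyte markers turns directions of several of the 10 genes.

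The medians of hepatocyte markers and of other liver cell markers lay on opposite sides of 0 with GDF15. Of 8 hepatocyte markers 6 were higher with GDF15 in both comparisons and none was lower (medians 0.51 and 0.47), although total-count scaling gave 5 higher and 1 lower relative to pair-feeding, with Serpina1a at 0.77 ± 0.10 (DESeq2 adjusted p = 8.23e-12) and Cps1 at 1.06 ± 0.15 (adjusted p = 3.18e-10) relative to vehicle. Of 22 markers of other liver cells, 21 were in the table and 18 measured, and 12 were lower relative to vehicle, none was higher, and 7 were lower relative to pair-feeding (medians -0.66 and -0.42), with none higher under total-count or hepatocyte-marker scaling. The stellate marker Pdgfrb fell by 0.90 relative to vehicle (adjusted p = 5.49e-07). Of the endothelial markers Lyve1 fell by 1.00 (adjusted p = 1.46e-08), while Pecam1 (-0.07, adjusted p = 0.765), Stab2 (-0.18, adjusted p = 0.203) and Kdr (0.25, adjusted p = 0.175) did not pass. The summed counts of the other liver cell markers ran from 8556 to 12636 in vehicle-treated, 5948 to 8860.3 in GDF15-treated and 8964 to 11159 in pair-fed livers. Adipoq was too low to be measured in any group, at 0 in all GDF15-treated mice and at means of 0.34 with vehicle and 0.48 with pair-feeding. The part of this shift in the higher Cyp27a1, Cyp7b1, Slc27a5 and Akr1d1 was not tested. The scaling by hepatocyte markers cannot decide it, because 6 of the 8 markers were themselves higher with GDF15. The markers also differed from each other. Relative to vehicle Apob read 0.03 and Cps1 1.06, and after that scaling -0.48 and 0.57.

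The genes whose levels most resembled those of the 3 members with the lowest adjusted p were sought over 18 samples and 10882 genes, as a description in which group differences contribute. Cyp27a1 was followed most closely by Serpina1a (r = 0.978), Ahsg (0.975) and Hmgn5 (0.972), and Slc27a5 by Serpina1b, Cyp2c50 and Slc25a23 (0.978 each). Cyp7b1 was followed by Mup1 (r = 0.971), Mup12 (0.957) and Mup7 (0.957), which encode major urinary proteins that carry pheromones. These had log2 fold changes of 3.71, 3.83 and 4.93 relative to vehicle. Serpina1, Cyp2c and Mup genes have near-identical copies, so their levels are uncertain individually.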

How the data were processed

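Liver RNA-seq was compared between 3 groups of 6 mice, with group and replicate number taken from the sample titles. The submitters' processing notes name Trim Galore, Salmon and the build mm10, with no versions given in the sources used here. The authors deposited estimated counts per gene symbol, given as whole numbers without scaling between libraries, and the lowest total of a gene over all samples was 5. A count of 3, taken as the floor, equals 0.0850 to 0.182 CPM in these libraries and covers counting error only. All 10 genes lay far above it, while Hsd3b5 in some mice did not. The labels do not say more of the replicates than that they are separate samples, so p-values measure the spread between them.

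All 18 samples entered 1 model in DESeq2 (1.42.0, under R 4.3.3) with group as the factor. Wald p-values were adjusted by Benjamini-Hochberg over all genes tested, and a gene passed at an adjusted p under 0.05. Both thresholds also required an absolute log2 fold change above 1. Normalized counts are counts divided by size factors. Alternatives were edgeR (4.0.16, quasi-likelihood, 12992 genes kept), TMM and total-count scaling, a filter of 10 counts in 6 samples, no independent filtering, fewer samples, the replicate number or set as a factor, thinning, and leaving out each mouse. Scaling by 8 hepatocyte markers and the interaction of group and set were chosen after the data were seen. Ratios were tested by exact permutation over 924 splits, and relations by 100000 permutations within groups (scipy 1.17.1, Python 3.11.15). The fits were tested on simulated data.

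The 10 genes and the lists were chosen with earlier results of these data known. Named from each list were up to 2 genes that rose and 2 that fell with the lowest adjusted p relative to vehicle and a mean normalized count of at least 10, plus Fgf15, Nr5a2, Fgfr4, Klb, Abcb11 and Slc51b, and for the 3 members with the lowest adjusted p the 3 genes most correlated with each (mean of at least 50). A gene that the rule would name is not reported here. Dbp was named for its relation with Cyp7a1, Adipoq for being at 0, Pecam1, Stab2 and Kdr beside Lyve1, and Apob beside Cps1. Gene positions and transcript lengths came from GENCODE M21 on GRCm38, the build called mm10, and promoters from RefSeq on GRCm38.p6.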

Additional observations from a re-analysis of the deposited data

Results flagged for a closer look

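Of 30 sets of 6 mice (10 genes in 3 groups), 3 held a mouse far from the others by Dixon's test. Chance gives about 1.5 if values are normal and sets independent. The test was run on normalized counts and not on log2 values, and the genes share libraries, so that number is only a rough guide. Vehicle replicate 6 had 3702 normalized counts of Cyp7a1 and pair-fed replicate 4 had 5717, each above the rest of its group. Pair-fed replicate 4 also had the lowest Hsd3b7 of its group, 9491.

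The GDF15 difference from vehicle for Nr0b2 was 1.84 larger on the log2 scale in replicates 4 to 6 than in replicates 1 to 3 (DESeq2 interaction, adjusted p = 0.00154). The difference from pair-feeding was 1.73 larger for Nr0b2 (adjusted p = 0.000772) and for Cyp7a1 it was -2.60 (adjusted p = 0.0335), that is, lower in replicates 4 to 6. These sets were known from earlier results of the same data, and labels name no batch for them.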

How the results depend on the processing

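The 4 members that passed in each GDF15 comparison stayed at 4 with edgeR, TMM scaling, a count filter, no independent filtering, the 12 samples compared, the set as a factor and thinning. The numbers of members past both thresholds relative to vehicle were 1 as reported, 2 in replicates 1 to 3, 2 in replicates 4 to 6 and 0 with size factors from hepatocyte markers, and relative to pair-feeding 0 as reported and 1 in each set. With the replicate block, 5 members passed relative to vehicle (Baat, 0.19, adjusted p = 0.0499, was added), 4 relative to pair-feeding and 0 for pair-feeding against vehicle. It changed no other call of the 10 genes. The block moved the count of all genes passing from 4885 to 4511 relative to vehicle and left the ratio of Cyp7a1 to Cyp7b1 at -0.55, -0.21 and -0.34 (exact sign-flip p = 0.50, 0.719 and 0.438). Whether the numbers pair the mice was not settled. Deviations of same-numbered mice correlated at -0.052 on average for vehicle and GDF15, 0.211 for vehicle and pair-fed and 0.028 for GDF15 and pair-fed. Mice of other numbers gave 0.012, -0.042 and -0.005. For vehicle and pair-fed the lowest same-numbered r was 0.03. In the 3 pairs of groups 1, 2 and 2 of 6 mice correlated best with their own number. Total-count scaling gave 4 and 3 members in the GDF15 comparisons.

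Signs turned as follows (log2), and the cause was not tested. With total-count scaling, which moved the median of genes averaging 10 or more normalized counts to -0.15 in both GDF15 comparisons, Cyp8b1 read -0.15 and Nr1h4 -0.088 relative to vehicle, and Nr1h4 -0.14 and Baat -0.10 relative to pair-feeding. With the set as a factor Cyp8b1 read -0.021 relative to vehicle. In replicates 1 to 3 Cyp8b1 read -0.31 and Nr0b2 -0.43 relative to vehicle, Nr0b2 -0.60 relative to pair-feeding, and pair-fed against vehicle Cyp7a1 -0.014, Cyp8b1 -0.019, Cyp27a1 -0.0058 and Hsd3b7 0.031. In replicates 4 to 6 Cyp7a1 read -0.33 and Nr1h4 -0.14 relative to vehicle and -0.79 and -0.22 relative to pair-feeding. With only the 12 samples compared Hsd3b7 read 0.0003 for pair-fed against vehicle. With size factors from hepatocyte markers Cyp8b1 read -0.48, Nr1h4 -0.41, Baat -0.31 and Hsd3b7 -0.33 relative to vehicle, Cyp7a1 -0.087, Nr1h4 -0.41, Nr0b2 -0.08, Baat -0.38, Hsd3b7 -0.29 and Akr1d1 -0.0071 relative to pair-feeding, and Cyp27a1 -0.033 for pair-fed against vehicle. That scaling gave 10752 and 9647 genes passing, against 4885 and 3894, with 2422 and 1638 past both thresholds against 920 and 484. With 3 mice a group, 3007 genes passed relative to vehicle in replicates 1 to 3 and 2588 in replicates 4 to 6, and 2186 relative to pair-feeding in replicates 4 to 6, where fewer samples were fitted. Total-count scaling gave 757 past both thresholds relative to pair-feeding. Between pair-fed and vehicle-treated mice, where no gene passed, 3 did with only the 12 samples compared, 3 with the block, 4 in replicates 1 to 3 and 18 in replicates 4 to 6, and leaving out 1 mouse gave 0 to 2.

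The log2 ratio of Cyp7a1 to Cyp7b1 read 0.61 relative to vehicle and 0.99 relative to pair-feeding in replicates 1 to 3, and -1.71 and -1.41 in replicates 4 to 6. Leaving out 1 mouse at a time, it ranged from -0.76 to -0.26 relative to vehicle, from -0.42 to 0.14 relative to pair-feeding and from -0.69 to -0.10 for pair-fed against vehicle. Leaving out 1 mouse also turned signs of Cyp8b1 relative to vehicle (-0.13 to 0.14), Nr1h4 relative to pair-feeding (-0.038 to 0.069), and, for pair-fed against vehicle, Cyp7a1 (-0.37 to 0.86), Cyp27a1 (-0.015 to 0.067) and Hsd3b7 (-0.032 to 0.054).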

Other observations

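Sex-biased liver genes were also read, since Cyp7b1 is known to be higher in males. Of 9 male-biased genes, 3 were higher, 1 was lower and 5 did not pass with GDF15 relative to vehicle (DESeq2, median 0.37), and 2 were higher and 1 lower relative to pair-feeding (median -0.11). Scaled by hepatocyte markers, 2 were higher and 2 lower relative to vehicle (median -0.14), and 2 were higher and 5 lower relative to pair-feeding (median -0.54). Hsd3b5 ranged from 17.98 to 2361 normalized counts with GDF15 and from 0 to 58.2 with vehicle (adjusted p = 0.000142), Slco1a1 from 1144 to 10654 and from 49.0 to 1488 (adjusted p = 0.000568), whereas Mup20 fell by 0.75 on the log2 scale (adjusted p = 0.00258). Of 8 female-biased genes 6 were measured, of which 2 were higher, none was lower and 4 did not pass relative to vehicle, and 1 was higher relative to pair-feeding. Scaled by hepatocyte markers, 1 was higher and 1 lower in each comparison (medians -0.30 and -0.22). Cux2 ranged from 22.9 to 154 normalized counts with GDF15 and from 25.4 to 45.5 with vehicle (adjusted p = 0.0413), which did not pass when scaled by total counts (0.105) or hepatocyte markers (0.314). Relative to pair-feeding Cux2 was higher by 1.43 on the log2 scale (DESeq2 adjusted p = 0.00128). That difference still passed when scaled by total counts (0.00447) or hepatocyte markers (0.0158).

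Between mice of the same group, deviations of log2 levels were most alike for Slc27a5 and Akr1d1 (r = 0.850 over 18 mice), Cyp7a1 and Nr1h4 (0.816), Cyp8b1 and Cyp27a1 (0.775) and Cyp27a1 and Slc27a5 (0.773), and most opposed for Cyp7a1 and Hsd3b7 (-0.491). These are descriptions over samples that share libraries, and no test was run on them.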
